A study of Mus musculus with 12 samples.

Results

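The nuclear genes for the subunits of complex I, the NADH:ubiquinone oxidoreductase of the mitochondrial inner membrane, were examined in mouse frontal cortex. Members were the protein-coding genes whose symbol starts with Ndufa, Ndufb, Ndufc, Ndufs or Ndufv, without the Ndufaf assembly factors, that had a total count of at least 120 over the 12 libraries. This gave 38 of the 54532 genes in the table, 31149 of which had a count. The least abundant member, Ndufa4l2, had 375 counts in all and the next, Ndufb2, had 3155. No protein-coding gene with such a symbol fell under the limit, and 5 further Nduf genes were left out by biotype. These were the processed pseudogenes Ndufa11b, Ndufab1-ps, Ndufb4c and Ndufs6b, with 10 to 681 counts, and Ndufb1-ps, which is annotated as a non-coding RNA and had 7470.

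Complex I takes electrons from NADH, passes them along iron-sulfur clusters to ubiquinone and pumps protons across the inner membrane. Its peripheral arm, in the matrix, holds the NADH site, the clusters and the ubiquinone site, and its membrane arm holds the proton pumps. The core of the membrane arm is encoded by mitochondrial DNA, while the core of the peripheral arm and all accessory subunits come from nuclear genes and are imported. In brain, neurons depend on this chain for most of their ATP, and complex I has been widely studied in neurodegeneration.

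Libraries were made from polyadenylated RNA of 12 mice, all aged 9 months. A group of 6 mice, 3 males and 3 females, carried the APP/PS1 transgenes, which express mutant human amyloid precursor protein and presenilin 1 and give amyloid plaques. The other 6, also 3 males and 3 females, carried the same transgenes and lacked Hras (APP/PS1/Hras-/-), the gene of a small GTPase that relays growth factor signals. The series asks what loss of Hras changes in these mice. All 12 mice carried the transgenes, so no difference here is one between diseased and healthy cortex. The promoter of the transgenes, the design of the knockout allele and the breeding of the mice are not stated in the labels. Mice are numbered within a group in the order of deposition, and the numbers pair no mice. Whole tissue was measured, so fewer cells of a type and less RNA per cell cannot be told apart.

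Total counts ran from 13984692 to 20174131 per library. Hras lay between 73.7 and 101.7 CPM (counts relative to the library total, with TMM scaling) in the APP/PS1 libraries and between 19.4 and 23.44 CPM in the knockout libraries. The log2 difference was -1.95 (SE 0.077, adjusted p = 3.04e-09, edgeR's quasi-likelihood test with Benjamini-Hochberg adjustment, n = 6 and 6), so RNA of the locus was reduced but not absent. The labels give the RNA integrity number (RIN) of each extract, and it was not balanced over the groups. Among males it was 7.8, 8.2 and 8.3 in APP/PS1 and 8.6, 8.7 and 8.7 in the knockout. Among females it was 8.6, 8.5 and 8.5 in APP/PS1 and 8.5, 8.4 and 8.3 in the knockout. In males the knockout thus had the higher RIN with no overlap, and in females the lower RIN with the groups touching at 8.5.

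All 38 members passed the filter on low counts, and they were among the more abundant and steadier genes. The median of their mean levels was 49.79 CPM, against 17.6 CPM over the 17307 genes tested. Their coefficient of variation over the 12 libraries had a median of 8.03%, against 13.3% over all genes tested. The members were not compared with genes of like level, so their steadiness may go with their level. Ndufv2, a core iron-sulfur subunit next to the NADH site, was the steadiest member at 2.75%. The levels of different genes were compared per kilobase of the principal annotated transcript. On that scale the median member stood at 65.5 CPM per kb. Ndufa4 was highest at 249 ± 13.6 CPM per kb (SD, n = 12), more than the next gene in every library. It was first described in complex I and is now assigned to cytochrome c oxidase, complex IV. Ndufa3 and Ndufa11, accessory subunits of the membrane arm, followed at 109 ± 8.86 and 105 ± 8.6 CPM per kb. The levels of the latter pair did not differ beyond their spread. At the low end stood Ndufs4 at 26.1 ± 1.21 CPM per kb. Ndufs4 is the accessory subunit whose loss gives a mouse model of Leigh syndrome. Ndufab1, the acyl carrier protein, stood at 11.4 ± 0.552 CPM per kb over a long transcript of 3479 bp. Its low place depends on that choice of transcript, since a shorter one would give a higher value. Ndufa4l2, the hypoxia-inducible relative of Ndufa4, was lowest at 1.95 ± 0.434 CPM per kb.

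**Figure D1:**
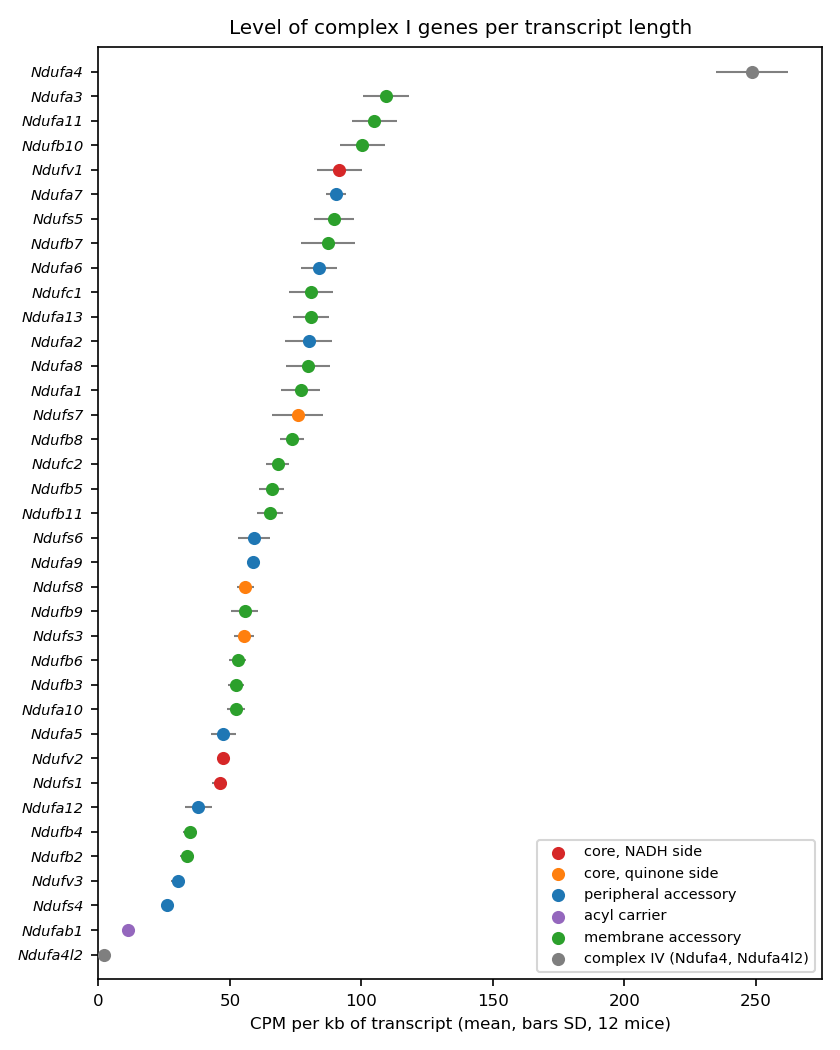
Level of 37 of the 38 genes per kilobase of transcript (horizontal axis, CPM per kb; point, mean; bar, SD over 12 mice), coloured by the place of the subunit. Ndufa4 at 249 CPM per kb stands apart from the rest, which run from 1.95 to 109 CPM per kb with core and accessory subunits intermixed.

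Promoter sequence was available from RefSeq (GRCm38.p6) for 33 of the 38 genes, as 35 windows of 300 bases that run from 250 before to 50 after the start of transcription. The windows were searched on both strands for short forms of the sites of factors known to act on respiratory chain genes. The form of nuclear respiratory factor 1 (NRF1), GCGCA and GCGC set 1 base apart, was in 22.9% of the member windows, against 8.87% of the windows of protein-coding genes with at least 120 counts. The form AAGATGGC of YY1 was in 20.0%, against 3.93%. The form CCGGAAG of ETS factors was in 11.4%, against 15.3%, TGACGTCA of CREB was in 8.57%, against 2.89%, and GGGCGG of SP1 was in 45.7%, against 60.4%. TCAAGGTCA of the estrogen-related receptors was in 0.0%, against 0.279%. These are matches of letters in a window, not measured binding. The shares were not tested.

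Stretches from 150 bases before the start to the 30 bases from the start on are shown, 5′ to 3′ on the strand of the gene, for 4 genes that recur in the comparisons. Ndufc1 had the smallest p in males, Ndufa5 in females and Ndufa8 for the difference between the sexes. Ndufb3 was taken for the lowest correlation with the median of the other members (r = -0.515). It was also the only member with knockout males wholly above APP/PS1 males. Capitals mark the searched forms, on either strand. They lie at chr3:51408926-51409105 (minus strand) for Ndufc1, chr6:24527661-24527840 (minus) for Ndufa5, chr2:36049309-36049488 (minus) for Ndufa8 and chr1:58586247-58586426 (plus) for Ndufb3.
Ndufc1: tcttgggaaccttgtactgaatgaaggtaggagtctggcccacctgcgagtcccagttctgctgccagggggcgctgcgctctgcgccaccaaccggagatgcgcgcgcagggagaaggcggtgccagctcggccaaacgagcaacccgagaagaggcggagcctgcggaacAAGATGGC
Ndufa5: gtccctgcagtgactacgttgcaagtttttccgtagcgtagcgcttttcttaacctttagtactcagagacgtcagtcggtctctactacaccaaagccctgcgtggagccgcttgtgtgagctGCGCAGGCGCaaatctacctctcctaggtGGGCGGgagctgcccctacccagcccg
Ndufa8: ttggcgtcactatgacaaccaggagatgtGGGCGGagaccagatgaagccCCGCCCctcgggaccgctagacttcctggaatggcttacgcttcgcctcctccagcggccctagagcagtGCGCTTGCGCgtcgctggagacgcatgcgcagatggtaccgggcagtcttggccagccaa
Ndufb3: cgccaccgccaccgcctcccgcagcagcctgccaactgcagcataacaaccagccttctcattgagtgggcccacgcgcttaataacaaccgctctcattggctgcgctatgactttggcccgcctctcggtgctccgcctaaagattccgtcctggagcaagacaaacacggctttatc
Ndufc1 carries the YY1 form within the first bases from the RefSeq start. Ndufa5 and Ndufa8 carry the NRF1 form upstream of that start, and the SP1 form. By GENCODE M21 these 2 genes begin further upstream, at 24528013 and 36049406, so their NRF1 forms lie within the annotated genes. This stretch of Ndufb3 carries none of the 6 forms.

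Across both sexes, loss of Hras left the complex I genes close to their APP/PS1 level. Of the 38, 24 lay lower and 14 higher in the knockout, and the median log2 difference was -0.0195, against 0.00239 over all genes tested, 48.9% of which lay lower. At an adjusted p under 0.05 with edgeR's quasi-likelihood test, 0 members were called, where 0.0173% of all genes were. At an unadjusted p under 0.05 the count of members was also 0, where the share of all genes was 1.68%, and the count of called members was 0 with DESeq2 as well. The smallest p belonged to Ndufb5, an accessory subunit of the membrane arm, with a log2 difference of -0.11 (SE 0.058, adjusted p = 1). Ndufc1, a small membrane-arm subunit, had -0.13 (SE 0.077) and Ndufab1 -0.077 (SE 0.053). The 95% interval of Ndufb5 ran from -0.22 to 0.0041. With RIN as a covariate the median turned to 0.036. With single libraries left out it ran from -0.046 without APP/PS1 female 2, where 28 of the 38 lay lower, to 0.012 without APP/PS1 male 1, and it was -0.039 without knockout female 3.

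The small figure across sexes came from opposite differences in the 2 sexes. For each library, the median over the 38 genes of their log2 deviation from their own mean over 12 libraries was taken. In males it was 0.17, 0.033 and 0.059 in APP/PS1 and -0.078, -0.023 and -0.039 in the knockout. In females it was -0.051, -0.073 and -0.06 in APP/PS1 and 0.012, 0.0037 and 0.014 in the knockout. So the APP/PS1 males were the highest group and lay wholly above the knockout males, while the APP/PS1 females lay wholly below the knockout females. APP/PS1 male 1 was the highest library of all, with 33 of the 38 genes above their own mean, and its RIN of 7.8 was the lowest. The summed level of the 38 genes ran from 2200.4 CPM in APP/PS1 female 2 to 2600.1 CPM in APP/PS1 male 1.

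**Figure D2:**
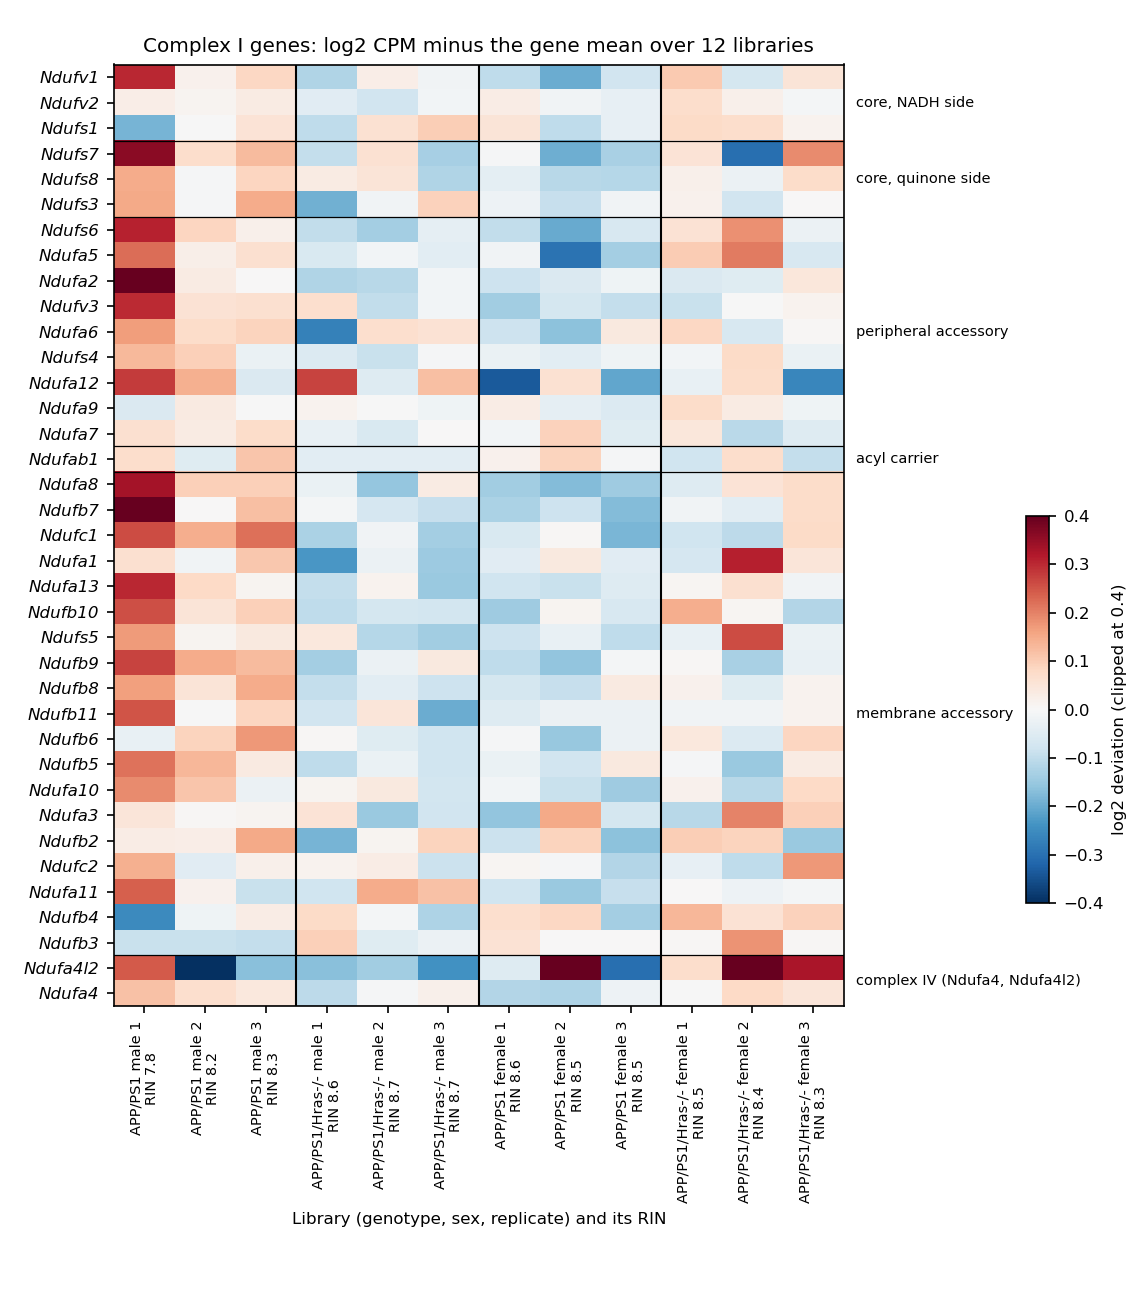
Log2 deviation of 37 of the 38 genes (rows, ordered by place in the complex) from its mean over 12 libraries (columns, with genotype, sex, replicate and RIN); red is above the mean, blue below, clipped at 0.4. The APP/PS1 male columns are mostly red, above all male 1, while the APP/PS1 female and knockout male columns are mostly blue.

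In males, 33 of the 38 genes lay lower without Hras, and the median was furthest from 0 among the accessory subunits of the membrane arm. The median log2 difference over the 38 was -0.13, against 0.00632 over all genes tested, 48.5% of which lay lower. No member was called (0 of 38, and 0.0116% of all genes). At an unadjusted p under 0.05, 11 members lay lower and 0 higher, where 1.75% of all genes lay lower and 2.16% higher. In 16 members the 3 knockout males lay wholly below the 3 APP/PS1 males, where 5.22% of all genes did so. In 1 member, Ndufb3, they lay wholly above (5.08% of all genes). DESeq2 gave 11 members at an unadjusted p under 0.05 and 0 called.

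Ndufc1 differed most. Its levels were 30.44, 28.08 and 29.56 CPM in APP/PS1 males and 23.2, 25.1 and 23.08 CPM in knockout males. The knockout values lay wholly lower, with a log2 difference of -0.30 (SE 0.088, unadjusted p = 0.00444, adjusted p = 0.945, edgeR). The APP/PS1 and knockout females, at 22.35 to 26.74 CPM, lay at the level of the knockout males, so the APP/PS1 males were the group that stood apart for this gene.

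Ndufb8, an accessory subunit of the membrane arm often used as an antibody marker of assembled complex I, showed the same order. It was at 56, 51.81 and 55.42 CPM in APP/PS1 males and at 46.76, 48.48 and 47.16 CPM in knockout males (log2 difference -0.20, SE 0.07, adjusted p = 0.945). Ndufb9, which sits at the tip of the same arm, was at 47.03, 43.16 and 42.49 CPM against 35.45, 38.32 and 40.01 CPM (-0.22, SE 0.082). Neither gene had overlapping male groups. Ndufb5 was at 82.52, 77.88 and 72.74 CPM in APP/PS1 males and 66.15, 69.66 and 67.13 CPM in knockout males, again without overlap (-0.20, SE 0.076). Ndufa8, an accessory subunit on the intermembrane side, was at 85.97, 72.8 and 72.88 CPM against 66.86, 61.17 and 69.81 CPM (-0.23, SE 0.083). For these 4 genes as for Ndufc1 the adjusted p was 0.945.

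By place in the complex, 9 of the 19 accessory subunits of the membrane arm lay lower at an unadjusted p under 0.05, with a median of -0.18. In the peripheral arm the count was 2 of 16, with a median of -0.13, and both, Ndufa2 and Ndufs6, were accessory subunits. Among the 7 core subunits the count was 0, and their median was -0.088. The difference between the arms was not tested. The core genes were not uniform. Ndufs7, which holds the last iron-sulfur cluster before ubiquinone, had a log2 difference of -0.24 (SE 0.12), and Ndufv1, which binds NADH and flavin, had -0.17 (SE 0.087). Ndufv1 was at 186.9, 153.4 and 160.5 CPM in APP/PS1 males and 139.6, 154.5 and 150.1 CPM in knockout males, so the groups overlapped and male 1 set most of the gap. Ndufs3 and Ndufs8 had -0.13 (SE 0.083) and -0.088 (SE 0.075), and Ndufv2 -0.068 (SE 0.062). Ndufs1, the largest subunit of the complex, had 0.063 (SE 0.083), the other way. Ndufs1 was at 107.6 CPM in APP/PS1 male 1 and at 122.5 and 127.1 CPM in the other 2, against 114.2, 127.8 and 131.2 CPM in the knockout. Male 1 was thus low for Ndufs1 while it was high for most members.

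Ndufb3, a small membrane-arm subunit named here after its values were seen, was the 1 member whose knockout males lay wholly above the APP/PS1 males. The accessory genes Ndufb4 (0.060), Ndufa9 (0.0060) and Ndufa11 (0.0032) also had log2 differences above 0 in males, each smaller than its SE. For Ndufb3 the APP/PS1 males lay within 37.4 to 37.57 CPM and the knockout males at 42.66, 38.65 and 39.26 CPM. Over all 12 libraries the correlation of Ndufb3 with the median of the other members was r = -0.52, and that of Ndufb4 was -0.49. At the other end Ndufv1 had r = 0.91 and Ndufb7 0.90. These correlations describe 12 libraries that share group and RIN differences. Over the 703 pairs of members the median r was 0.33, and it was 0.096 once the group means were removed.

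In females the order was the reverse, with a smaller median. Without Hras, 35 of the 38 genes lay higher, with a median log2 difference of 0.079 against 0.00214 over all genes tested, 50.5% of which lay higher. Of the members 0 were called by edgeR or by DESeq2, where edgeR called 0.0116% of all genes. At an unadjusted p under 0.05, 1 member lay higher and 0 lower, where 1.43% of all genes lay higher and 2.37% lower. The knockout females lay wholly above the APP/PS1 females in 9 members, where 4.33% of all genes did so, and wholly below in 0 (5% of all genes).

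The member with the smallest p was Ndufa5, an accessory subunit of the peripheral arm. It was at 41, 33.76 and 37.64 CPM in APP/PS1 females and 44.45, 47.84 and 39.61 CPM in knockout females. The groups overlapped narrowly, and the log2 difference was 0.23 (SE 0.096, unadjusted p = 0.0324, adjusted p = 0.991). Ndufa8 was at 61.92, 60.48 and 61.81 CPM against 65.8, 70.77 and 71.73 CPM, without overlap (0.18, SE 0.083, adjusted p = 0.991). Ndufs6, the accessory subunit that binds zinc in the peripheral arm, was at 31.16, 28.97 and 31.92 CPM against 34.72, 37.88 and 32.84 CPM (0.19, SE 0.094). Ndufa4 was at 139.5, 139 and 149.4 CPM against 151.2, 159.9 and 156.5 CPM (0.13, SE 0.068). Neither had overlapping groups. Ndufv1 was at 141.3, 132.1 and 143.8 CPM against 163, 144.5 and 157 CPM, just without overlap (0.15, SE 0.087). All 7 core subunits lay higher, and besides Ndufv1 they ranged from 0.023 for Ndufs3 (SE 0.083) to 0.11 for Ndufs8 (SE 0.075). Between these stood Ndufv2 at 0.033 (SE 0.062), Ndufs1 at 0.080 (SE 0.083) and Ndufs7 at 0.10 (SE 0.12).

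**Figure D3:**
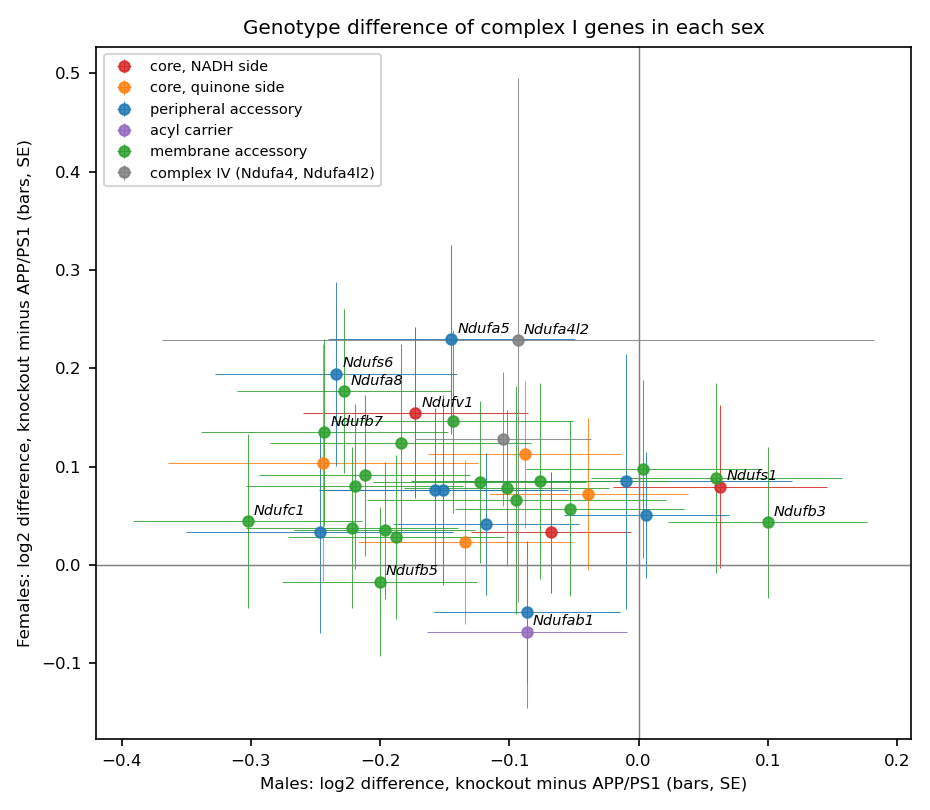
Log2 difference between knockout and APP/PS1 for each gene in males (horizontal axis) and in females (vertical axis), with bars of 1 SE, coloured by the place of the subunit. Of the 38 points, 30 lie below 0 in males and above 0 in females.

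The difference between the female and the male effect was tested for each gene as a genotype by sex interaction. It lay above 0 in 37 of the 38 genes, with a median of 0.21 against -0.00676 over all genes tested, 49% of which lay above 0. Neither edgeR nor DESeq2 called a member (0 of 38), and edgeR called 0% of all genes. At an unadjusted p under 0.05, 12 members lay above 0 and 0 below, where 3.23% of all genes lay above and 3.98% below. Ndufa8 had the smallest p, with 0.41 (SE 0.12, unadjusted p = 0.00423, adjusted p = 0.667), and Ndufs6 followed with 0.43 (SE 0.13). Ndufb7, an accessory subunit of the membrane arm on the intermembrane side, had 0.38 (SE 0.13), Ndufa5 0.37 (SE 0.14) and Ndufc1 0.35 (SE 0.13), all at the same adjusted p. In 4 members the groups did not overlap in either sex, lower in males and higher in females, where 0.543% of all genes did so. These were Ndufa4, Ndufa8, Ndufb7 and Ndufs6. A male value below 0 with a female value above 0 was seen in 30 of the 38, and in 30.9% of all genes tested.

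The same 12 libraries can be read by sex, and these values share mice with those above. RIN did not overlap between the sexes in either genotype. It was 7.8 to 8.3 in APP/PS1 males and 8.5 to 8.6 in APP/PS1 females. In the knockout it was 8.6 to 8.7 in males and 8.3 to 8.5 in females. Sex and RIN thus cannot be told apart within a genotype. Within APP/PS1, 34 of the 38 genes lay lower in females than in males, with a median log2 difference of -0.16, where 48.4% of all genes lay lower. While 0.052% of all genes were called, 0 members were, and 16 lay lower at an unadjusted p under 0.05, where 4.78% of all genes did so. That count was 5 without APP/PS1 male 1, 8 without APP/PS1 female 2, 10 without APP/PS1 female 1 and 0 with RIN as a covariate. Ndufa8 had the smallest p there, with -0.33 (SE 0.083, adjusted p = 0.375). Within the knockout, 33 of the 38 lay higher in females, with a median of 0.06, where 50.1% of all genes lay higher. Here 0.0462% of all genes and 0 members were called, and 1 member lay higher at an unadjusted p under 0.05, where 1.34% of all genes did so. This was Ndufa1, an X-linked membrane-arm subunit, at 30.63, 39.87 and 33.23 CPM in knockout females and 27.3, 31.6 and 28.99 CPM in knockout males, with the groups overlapping. Without knockout male 1, 29 of the 38 lay higher in knockout females, with a median of 0.035 and 0 at an unadjusted p under 0.05, and with RIN as a covariate the median was 0.017, with 23 higher.

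The library medians were then set beside RIN. The 3 APP/PS1 males, with the lowest RIN of the males, were highest, and the libraries at RIN 8.6 and 8.7 all lay below 0. At the shared RIN of 8.5, knockout female 1 was at 0.012, and APP/PS1 females 2 and 3 were at -0.073 and -0.06. At RIN 8.3, APP/PS1 male 3 was at 0.059 and knockout female 3 at 0.014.

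**Figure D4:**
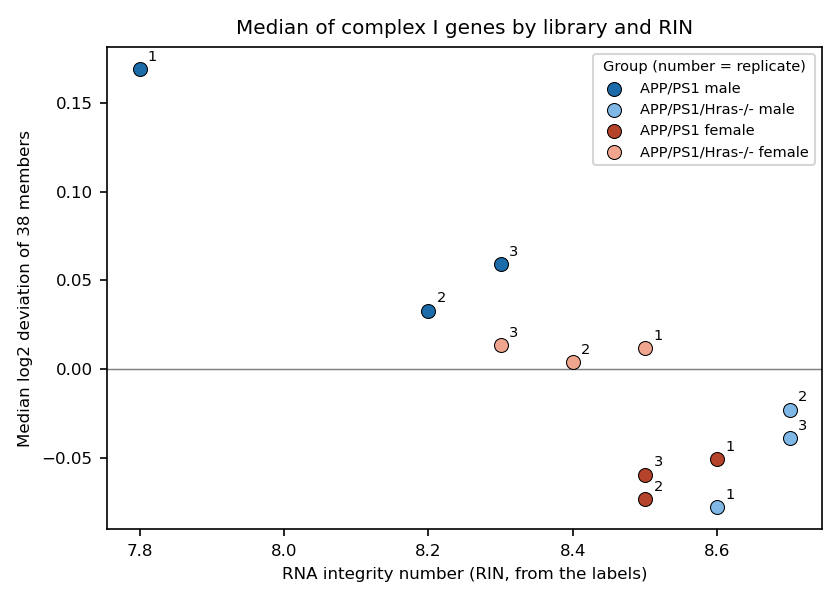
Median log2 deviation of the 38 genes in each of the 12 libraries (vertical axis) against its RIN (horizontal axis), coloured by genotype and sex and numbered by replicate. The library at RIN 7.8 lies highest at 0.17, and the 4 libraries at RIN 8.6 or 8.7 lie between -0.023 and -0.078.

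Within the 4 groups, the slope on RIN was below 0 in 28 of the 38 genes, with a median of -0.18 log2 per RIN unit against -0.0399 over all genes tested, 52.5% of which lay below 0. With edgeR 0.00578% of all genes and 0 members were called. At an unadjusted p under 0.05, 5 members had a slope below 0, where 7.3% of all genes did, and 1, Ndufs1, had one above 0, where 6.25% did. Ndufa2, a small accessory subunit of the peripheral arm, had the steepest of these at -0.78 (SE 0.20, adjusted p = 0.143). Ndufb7 had -0.65 (SE 0.20, adjusted p = 0.202) and Ndufv3, an accessory subunit beside the NADH site, -0.54 (SE 0.18, adjusted p = 0.243). Ndufa2 was at 61.18 CPM in APP/PS1 male 1 and between 41.89 and 47.04 CPM in the other 11. The slopes rest on that library: without APP/PS1 male 1 the median slope was 0.042, 22 of the 38 lay above 0 and 0 had an unadjusted p under 0.05.

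With RIN as a covariate, the median over the 38 genes in males was -0.025, with 21 lower and 17 higher and 0 at an unadjusted p under 0.05. In females it was 0.044, with 33 higher, and for the interaction it was 0.068, with 25 above 0 and 1 at an unadjusted p under 0.05. Ndufa8 turned to 0.054 in males under that covariate, and Ndufb7 to -0.085 for the interaction. These fits adjust by the slope on RIN within groups, which rested on APP/PS1 male 1. No fit with the covariate was run without that library. Without APP/PS1 male 1 and without the covariate, 33 of the 38 still lay lower in males, with a median of -0.086 and 2 at an unadjusted p under 0.05, and the interaction had a median of 0.15. Without knockout male 1 the male count at an unadjusted p under 0.05 was 4. Because the male groups do not overlap in RIN, genotype and RIN cannot be told apart there. The interaction includes the male difference and shares this limit.

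Complex I genes are short, and over all genes the slope on RIN differed with transcript length. The median transcript of the 38 was 812 bp, against 2787 bp over all genes tested, and 33 of the 38 were under 1693 bp. In males the median log2 difference of all genes ran from -0.0513 in the bin of the shortest transcripts to 0.0927 in that of the longest, and the slope on RIN from -0.243 to 0.337. Across genes, which are not independent replicates, Spearman's rho of the male difference with transcript length was 0.313 over the members and 0.213 over all genes. With GC content it was -0.41 and -0.282. With trends of GC content and length removed from each library, 31 of the 38 still lay lower in males, with a median of -0.106. At an unadjusted p under 0.05 there were 6, where the share of all genes was 3.64%. In females 36 then lay higher, with a median of 0.105 against 0.0373 over all genes, and 5 at that limit (5.21% of all genes). For the interaction 15 members were under that limit (8.26% of all genes), with a median of 0.203 against 0.0529 over all genes. Across sexes the median was 0.0065, with 22 higher. The median slope on RIN then was -0.00605.

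**Figure D5:**
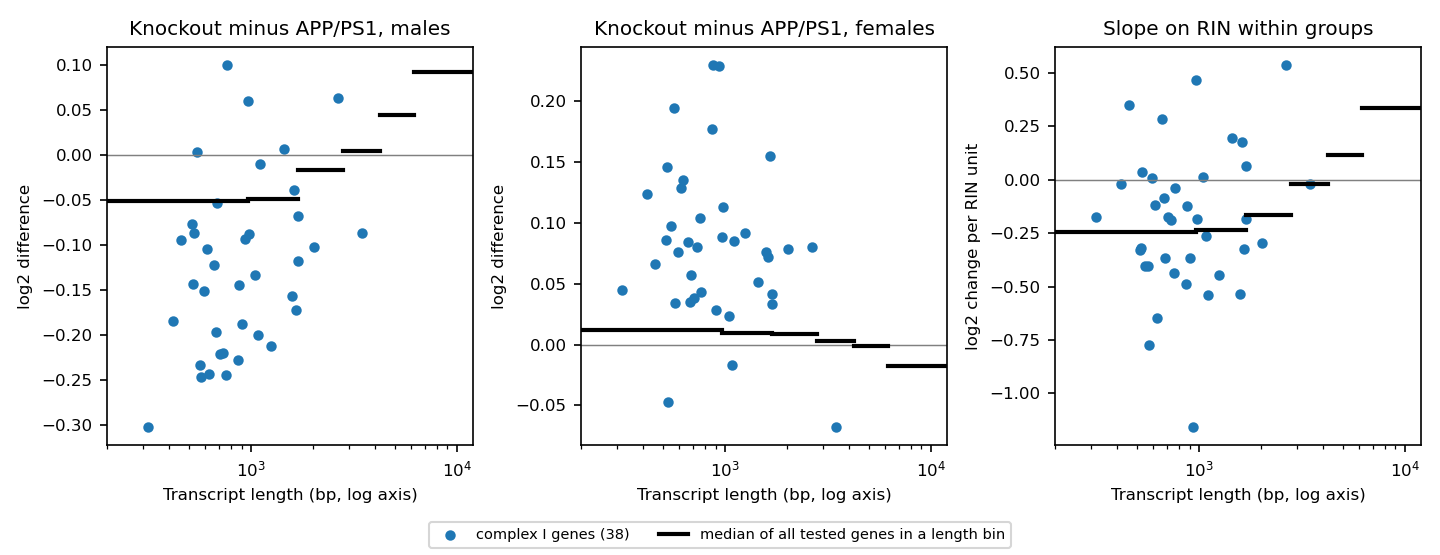
Log2 difference in males, in females and slope on RIN within groups (vertical axes, different scales) against transcript length (horizontal, log axis); points are the 38 genes, black lines the median of all tested genes in each length bin. In males most points lie below the line of their bin (median of the members -0.13, bins from -0.0513 to 0.0927), and in females most lie above it.

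The other nuclear genes of the respiratory chain showed the same pattern. Of 38 tested genes of complexes II to V, 35 lay lower in males, with a median of -0.14, and 35 lay higher in females, with a median of 0.076. Their interaction lay above 0 in all 38, with a median of 0.21, and 0 were called. Uqcrq, a small subunit of complex III, was at 72.24, 61.66 and 61.53 CPM in APP/PS1 males and 53.09, 56.76 and 50.27 CPM in knockout males, without overlap (log2 difference -0.29, SE 0.092). Cox8a, a small subunit of complex IV, had -0.30 in males (SE 0.099). The opposite directions in the 2 sexes were thus seen outside complex I too.

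The 7 complex I subunits encoded by mitochondrial DNA went the other way. In males 6 of the 7 lay higher in the knockout, with a median of 0.12, in females all 7 lay lower, with a median of -0.20, and the interaction lay below 0 in all 7, with a median of -0.27. None was called (adjusted p = 0.667 or above for the interaction). Among them mt-Nd4l, at 1.11 to 5.05 CPM, had an interaction of -1.44 (SE 0.53), and mt-Nd6, the only one on the light strand, had -0.59 (SE 0.25). The summed mitochondrial levels, 11730 to 16510 CPM, overlapped between the genotypes in both sexes.

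Of 18 tested assembly factors of complex I, 13 lay lower in males, with a median of -0.087, and 10 lay higher in females, with a median of 0.056. None was called. Timmdc1, a membrane protein that builds the membrane arm, had the smallest p, with -0.41 in males (SE 0.10, unadjusted p = 0.00113, adjusted p = 0.945), -0.16 in females (SE 0.10) and -0.29 across sexes (SE 0.077, adjusted p = 1). It lay lower in both sexes, while 30 of the 38 subunit genes lay lower in males and higher in females. Among 14 regulators of respiratory chain genes, 6 lay lower and 8 higher in males, with a median of 0.031. Esrra, an estrogen-related receptor, had -0.34 in males (SE 0.14), 0.21 in females (SE 0.14) and an interaction of 0.55 (SE 0.20, adjusted p = 0.667). Ndufb1-ps, left out of the members only because it is annotated as a non-coding RNA, stayed between 33.97 and 39.73 CPM.

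Cell type markers were read beside these values. The summed level of 6 neuron markers was 6013 to 6534 CPM in APP/PS1 males, 5471 to 6585 in knockout males, 4539 to 5437 in APP/PS1 females and 5686 to 5960 in knockout females. By the median library, neuron markers were also highest in APP/PS1 males and lowest in APP/PS1 females, and in females the sums of the genotypes did not overlap. Taken singly, 1 of the 6 neuron markers lay wholly higher in knockout females, where 4.33% of all genes did so. Sums of 5 astrocyte markers were 1529 to 1783, 1383 to 2196, 2194 to 2364 and 1871 to 2005 CPM in the same order, and those of 5 microglia markers 353 to 499.9, 382 to 559.2, 578.3 to 653.3 and 458.8 to 598.8 CPM. The astrocyte sums of the female genotypes did not overlap either. In females, all 5 astrocyte and all 5 microglia markers lay lower in the knockout, while 5 of the 6 neuron markers lay higher. Of these, 3 astrocyte markers and 1 microglia marker lay wholly lower, where 5% of all genes did so. All 5 oligodendrocyte markers and 4 of the 5 parvalbumin interneuron markers also lay higher there, and 5 of the 7 endothelial and mural markers lay lower. In males, all 5 astrocyte markers, all 7 endothelial and mural markers and 4 of the 5 microglia markers lay higher in the knockout, and 4 of the 6 neuron markers lay lower. Of the 5 oligodendrocyte markers 4 lay higher in knockout males, and of the 5 parvalbumin interneuron markers 4 lay lower. All 5 striatum markers lay lower in the knockout in both sexes. All 3 oligodendrocyte precursor markers lay higher in knockout males and lower in knockout females, 2 of them at an unadjusted p under 0.05 in each sex. All 4 choroid plexus markers lay higher in knockout males and lower in knockout females. So did the 2 blood markers tested, which stood at 4.48 CPM or less. Of 4 leptomeninges markers, 3 lay higher in knockout males and all 4 lay lower in knockout females. None of these markers was called in either sex. The sum of 4 choroid plexus markers was 3026 CPM in APP/PS1 female 2 and 9.985 to 584.1 CPM in the other libraries, and that of 5 striatum markers was 120.3 to 537.5 CPM. The part of cell content in the complex I values was not tested.

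Some members share sequence with copies elsewhere, and 11 of the 38 had a processed pseudogene that matched at 95% identity or more over 100 bp. Ndufa12, an accessory subunit of the peripheral arm, was the most exposed. Its copy Gm15920 (chromosome 5, 130188395 to 130188796 on GRCm38, plus strand) matched at 99.5% over 402 bp and had 36.4% as many counts. The copy ranged from 5.098 to 29.29 CPM and Ndufa12 from 33.09 to 50.77 CPM. The coefficient of variation was 13.5% for Ndufa12 and 6.21% for the sum of both, so where one was high the other tended to be low. The value of Ndufa12 alone is uncertain for that reason. Copies held 9.94% and 8.33% as many counts as Ndufab1, 7.56% as many as Ndufs3 and 3.47% as many as Ndufs6. Of the exon length, 39% in Ndufb6 and 29.98% in Ndufa13 overlaps a gene on the other strand, with 264 and 15 counts. Smaller overlaps on that strand were with genes of more counts. They were 12.89% of Ndufb11 (Rbm10, 14515 counts), 12.33% of Ndufb5 (Mrpl47, 2642) and 2.59% of Ndufb2 (Braf, 32748). Counting genes of any kind, 19 members, Ndufc1 among them, matched another gene at 95% identity or more over 100 bp.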

How the data were processed

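The deposited table holds counts per gene and library, without normalization, from TruSeq Stranded mRNA libraries. Per the submitters' processing notes, the tools were HISAT2 2.1.0, Trimmomatic 0.33, featureCounts and FastQC 0.11.7, with mm10 and mm9 listed as builds, their roles unstated. For the annotation release, strand setting and multi-mapping reads, the choice is not given in the sources used here. Identifiers were matched to GENCODE M21 (GRCm38), and 123 genes had no match (0.0918% of counts).

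Genes were tested in R 4.3.3 with edgeR 4.0.16 (TMM scaling, filterByExpr over 4 groups, robust quasi-likelihood F test, Benjamini-Hochberg over all 17307 genes, threshold 0.05). Sex and genotype were additive terms for the effect across sexes, and all other effects were contrasts between the means of 4 groups, with RIN added for its slope. Standard errors derive from the F statistic, and 95% intervals use the normal quantile 1.96. Library medians used log2 CPM with a prior count of 2. Promoter windows are RefSeq's, and copies were found with blastn 2.17.0. The tests of the genotype effects and of the interaction were first tried on simulated counts. Those of the sex effects and of the slope on RIN were not. Mice are separate animals by the labels, so p-values measure the spread between mice.

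The members, gene lists and comparisons were chosen with earlier results of these data known. Named genes were the 5 members with the smallest p in males, in females and for the interaction, the 3 across sexes and for the RIN slope, the 7 core subunits, the highest and lowest 3 per length, and up to 2 genes per other list. Others were named after their values were seen. The values of 1 core subunit are not reported here, though it enters the counts and medians. Alternatives were DESeq2 1.42.0, limma-voom (limma 3.58.1), upper quartile or RLE factors, other filters, a threshold of 0.1, dispersions without the robust option, RIN alone or as a covariate, each sex alone, genotype alone, removal of GC and length trends, members without Ndufa4 and Ndufa4l2, and left-out libraries.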

Additional observations from a re-analysis of the deposited data

Results flagged for a closer look

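Ndufa2 was at 61.18 CPM in APP/PS1 male 1, and the nearest of the other 5 APP/PS1 mice was at 46.58 CPM, a gap of 0.802 of the range of the group. Ndufab1 was at 41.44 CPM in knockout female 2, and the nearest of the other 5 knockout mice was at 38.38 CPM, a gap of 0.681 of the range. In groups of 6, chance sets about 1 in 20 apart in this way, and 36 such groups of 6 values were read for the named genes. The third is the difference between the sexes: the median over the 38 genes of the female minus the male log2 difference was 0.2118, with all 3 knockout males below and all 3 knockout females above their APP/PS1 counterparts in the per-library median. That difference was tested gene by gene, with 0 genes called, and was not tested over the set. With RIN as a covariate its median was 0.0682, with 25 of the 38 genes above 0. The male groups in it do not overlap in RIN, so it cannot be told apart from RIN.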

How the results depend on the processing

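No paired analysis was possible because the labels number the mice individually and give no number shared between groups. Under every alternative run, 0 members were called in any comparison, and 163 of 171 recomputed medians over the members stayed within the spread between libraries. The 8 that moved came with RIN as a covariate or without an APP/PS1 male. Medians within that spread could still change sign. Across sexes the median was 0.012 without APP/PS1 male 1 and 0.0065 with GC and length trends removed. For the slope on RIN it was 0.0423 without APP/PS1 male 1. With RIN as a covariate the median was 0.0361 across sexes, -0.0251 in males, 0.0682 for the interaction, -0.0732 for sex within APP/PS1 and 0.0169 for sex within the knockout. Covariate fits without APP/PS1 male 1, on which the slope within groups rests, were not run. With each library left out in turn, the median ran from -0.173 to -0.086 in males and from 0.15 to 0.24 for the interaction, both ends nearest 0 being without APP/PS1 male 1. The cause was not tested.

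Of the values of named genes, 781 kept their direction and their side of the threshold and 11 changed sign, all with values near 0 or under the RIN covariate. In males the RIN covariate gave 0.0539 for Ndufa8, 0.0161 for Ndufv1, -0.239 for Ndufs1, 0.0072 for Ndufs7 and 0.0166 for Ndufs8, and it gave -0.0845 for Ndufb7 in the interaction. Removal of GC and length trends gave 0.00101 for Ndufs8 in males. Without APP/PS1 female 2 and knockout male 1, Ndufs3 was at -0.000792 in females. With single libraries left out, Ndufs1 ran from -0.00572 to 0.123 in males, and Ndufs3 from -0.00133 to 0.0536 and Ndufs7 from -0.00192 to 0.234 in females. The count of members at an unadjusted p under 0.05 in males ran from 2 to 13 with 1 library left out, and the median slope on RIN from -0.217 to 0.0423 (the highest without APP/PS1 male 1). DESeq2 called 300 genes for that slope, against 1 with edgeR, and 0 of them were members. Depth limits Ndufa4l2 most, with 375 counts in all, while every other member had at least 3155.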
